A study of Homo sapiens with 18 samples.

Results

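The data described here are the poly(A) RNA-seq profiles of non-senescent IMR90 ER:RAS cells after 3 days with the N-myristoyltransferase inhibitor IMP1088, set against the same cells with vehicle. The members were chosen by treatment label alone: 3 libraries of control cells with IMP1088 at 300 nM and 3 libraries of control cells with DMSO, 6 of the 18 libraries in the series. IMR90 is a human fetal lung fibroblast line, and ER:RAS is a RAS oncogene fused to an oestrogen receptor domain, which is activated when 4-hydroxytamoxifen (4OHT) is added. All 18 libraries come from this line, which the labels give as wild type. Control cells received DMSO in place of 100 nM 4OHT, were cultured for 7 days, then received IMP1088 or a further DMSO vehicle for 3 days, and were collected on day 10. In the rest of the series the cells were made senescent with 4OHT, or were given another N-myristoyltransferase inhibitor, DDD86481, at 1.5 µM. The labels number 3 replicates per group. The study's supplement calls its replicates of these treatments independent experiments, without saying which numbers, if any, were run together.

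N-myristoyltransferases attach the fatty acid myristate to the N-terminal glycine of nascent proteins, which lets those proteins sit on membranes. Their substrates include ARF GTPases, which recruit the COPI coat to the Golgi, SRC-family kinases and G protein alpha subunits. COPI vesicles bring escaped proteins back to the endoplasmic reticulum (ER), and misfolded protein that builds up there sets off the unfolded protein response, in which the sensors IRE1, ATF6 and PERK raise chaperones, degradation factors and the ATF4 and CHOP transcription factors. Non-senescent fibroblasts still divide, and they are the cells that an inhibitor aimed at senescent cells has to spare. The comparison asks which transcripts differ in such cells when they meet the inhibitor without oncogenic RAS.

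The 6 libraries held 18328979 to 23189950 counts, deposited as raw counts per gene. Levels are given as CPM, edgeR's unit for a gene's count relative to the scaled total of its library, and 3 counts in a library, the floor used here, correspond to 0.121 to 0.151 CPM. All 11 fibroblast markers had counts in every library, COL1A1 at 8993, 8259 and 5549 CPM in the DMSO libraries and 9606, 8219 and 8166 CPM with IMP1088. Of 9 epithelial markers, 4 were at 0 in all 6 libraries and 2 more at or under the floor. KRT19, a keratin, lay at 29.3, 27 and 37.8 CPM with DMSO and 6.82, 6.32 and 6.65 CPM with IMP1088 (log2 fold change -2.24 ± 0.21, adjusted p = 1.61e-07). CLDN4 also fell (log2 fold change -2.05 ± 0.29, adjusted p = 1.97e-05). The endothelial list had 3 of 7 markers at or under the floor, and among the rest VWF rose (log2 fold change 1.36 ± 0.25, adjusted p = 0.000368), while PECAM1 lay at 0.0806, 0.201 and 0.348 CPM with DMSO and 0, 0.0445 and 0.0486 CPM with IMP1088. TEK, the most abundant marker of that list, was not called. It lay at 53.5, 41.9 and 30.6 CPM with DMSO and 41.3, 31.4 and 38.9 CPM with IMP1088, with overlap. Among 7 blood cell markers, 2 were at 0, and neither of the 2 abundant enough to be tested, CD14 and CD68, was called. The part of these other markers in the results was not tested. The fusion gene can be read through HRAS and ESR1, both counted above 1000 CPM in every library. HRAS lay at 3031, 3079 and 3248 CPM with DMSO and 3555, 3838 and 3966 CPM with IMP1088 (log2 fold change 0.28 ± 0.09, adjusted p = 0.0241), and ESR1 at 1784, 1571 and 1197 CPM with DMSO and 1999, 2098 and 2177 CPM with IMP1088 (log2 fold change 0.46 ± 0.13, adjusted p = 0.00942). HRAS was not called without IMP1088 replicate 2 or 3 or with upper quartile scaling. Neither call held when only the 6 libraries were fitted, and the counts do not tell the fusion from the endogenous genes.

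Control DMSO replicate 3 stood apart from the other libraries by transcript length. In the plot of library deviations by transcript length, the better expressed genes with an annotated length are split into 4 classes of 2648 or 2649 genes. Each library is compared with the mean of the control DMSO libraries. The median of the shortest class deviated by 0.27 on the log2 scale in DMSO replicate 3 and by -0.21 and -0.07 in DMSO replicates 1 and 2. In the longest class the order was turned round, at -0.28 against 0.21 and 0.06. The IMP1088 libraries deviated by -0.25, -0.16 and -0.14 in the shortest class and by 0.25, 0.16 and 0.14 in the longest, on the side of DMSO replicates 1 and 2. Without a correction, 226 genes of the shortest class were called higher and 811 lower with IMP1088, against 707 higher and 261 lower in the longest class. With offsets that remove the trend with length from every library the calls became 527 higher and 553 lower, and 506 higher and 599 lower. The cause of the trend was not tested. Where the call in control cells of a gene named by rule, or the count of a list, turned on the offsets or on DMSO replicate 3, this is said beside it. CCNB2, PLK1, EGR2, SREBF2, FOSL1, KLF6, MYC, TFEB, POLE, MCM2, PPIB and PDIA4 were not checked in this way. Differences between senescent and control cells were checked only for genes named by interaction and for the fixed members, not for lists.

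**Figure D1:**
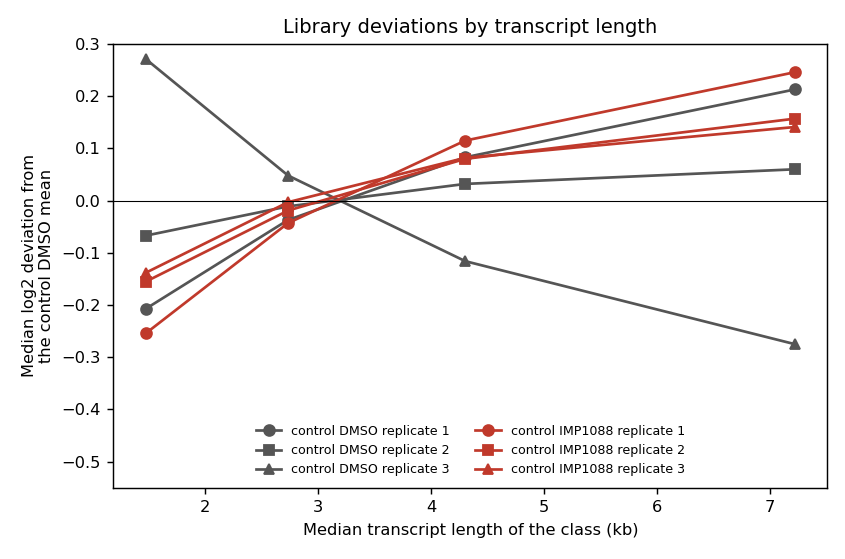
Median log2 deviation (vertical axis) from the mean of the control DMSO libraries, for 4 classes of better expressed genes by median transcript length in kb (horizontal axis), 1 line per library, grey for DMSO and red for IMP1088. DMSO replicate 3 falls from 0.27 in the shortest class to -0.28 in the longest, while the other 5 libraries rise.

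Of 14341 genes tested, 4829 (33.7%) differed between IMP1088 and DMSO at an adjusted p under 0.05, 2333 higher (16.3%) and 2496 lower (17.4%). Adjusted p-values come from edgeR's quasi-likelihood test with Benjamini-Hochberg adjustment, and a value after ± is a standard error of a log2 fold change unless stated. Most changes were small: 2538 of the calls were under 1.5-fold, 315 genes were called and over 2-fold higher and 594 over 2-fold lower. The median log2 fold change over all genes was -0.00, and the middle 50% of genes lay between -0.30 and 0.28. In 5939 genes (41.4%) no IMP1088 library overlapped a DMSO library, 2885 higher (20.1%) and 3054 lower (21.3%), and 4410 of these were also called. On the leading principal component of the 6 libraries, which held 61.8% of the variance, the DMSO libraries lay at -19, -28.1 and -50.3 and the IMP1088 libraries at 38.5, 30.3 and 28.6. The groups were separated on it, DMSO replicate 3 being the most distant. A fit of only these 6 libraries gave 2716 calls among 13580 genes, 1233 higher and 1483 lower. Fits with 1 library left out called 1701 to 2909 genes higher and 1804 to 2983 lower. List counts from these fits stand against those totals and not against the shares of the main fit. A test against a 2-fold change gave 257 calls, of which 52 were higher and 205 lower.

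The gene groups followed opposite directions, as the plot of calls in each gene list shows. Genes of mitosis, DNA replication and contraction fell, and genes of ER folding, ER-associated degradation, sterol synthesis, fatty acid synthesis, amino acid transport and the immediate early response rose. The counts of members stand against the 16.3% of all genes that rose and the 17.4% that fell. The lists were written with earlier results of these data known. A share beyond those of all genes is thus partly set by the choice of members, and no test was made of it.

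**Figure D2:**
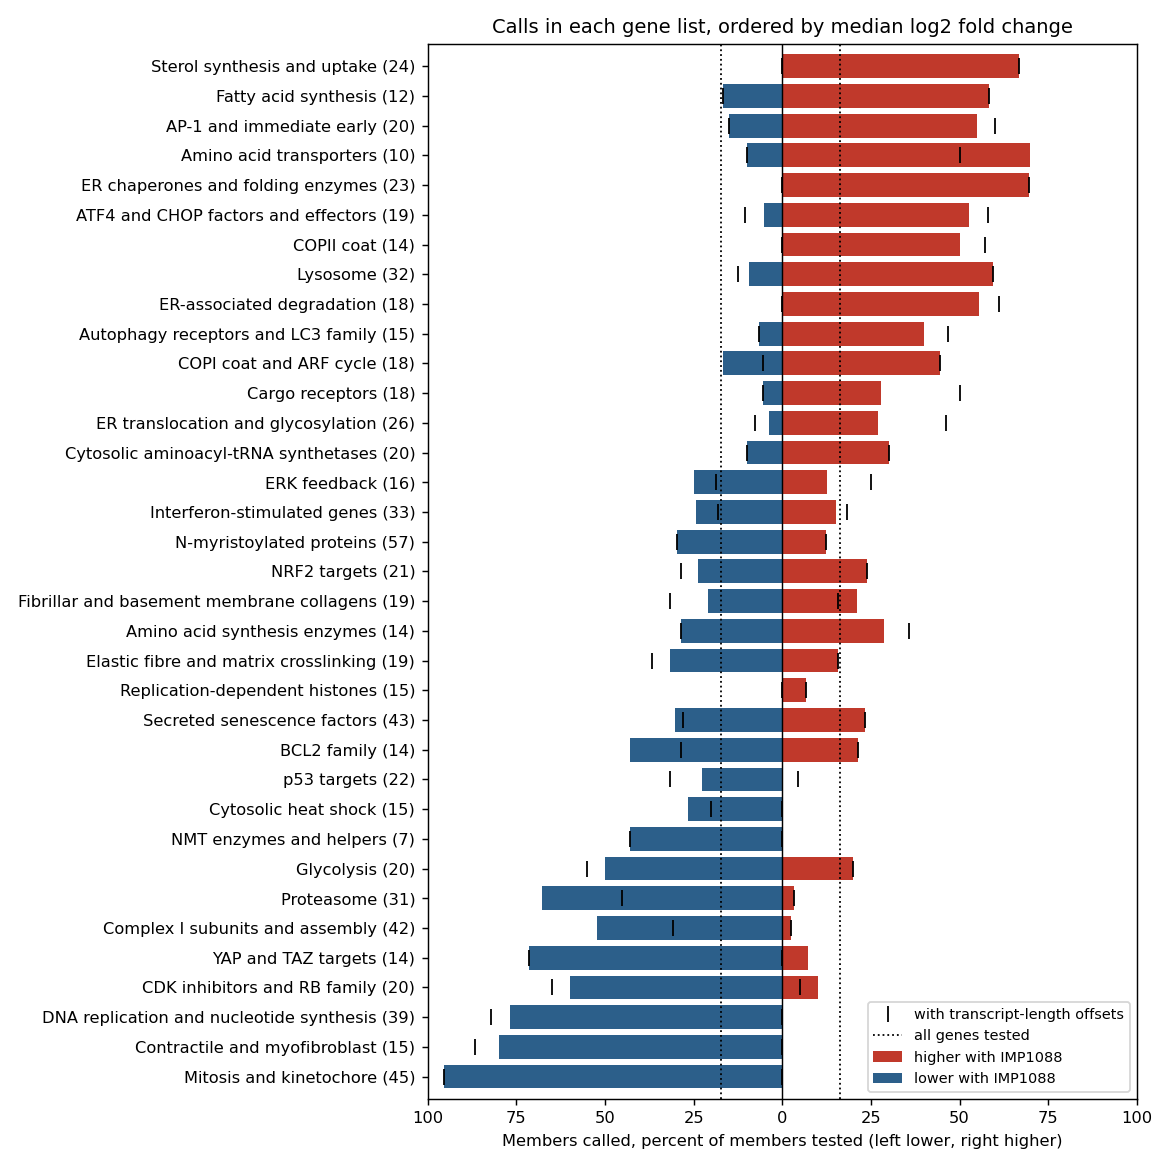
Percent of the tested members of each gene list (number tested in parentheses) called higher (red, right) or lower (blue, left) in control cells with IMP1088, ordered by the list's median log2 fold change. Dotted lines mark the 16.3% higher and 17.4% lower of all genes, and black ticks mark the calls with transcript-length offsets, which shorten the bars of complex I and the proteasome and move those of mitosis, contraction and sterol synthesis little.

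IMP1088 acts on the N-myristoyltransferase proteins, so their transcripts do not check the treatment. NMT1 lay at 157, 141 and 153 CPM with DMSO and 176, 156 and 177 CPM with IMP1088 (log2 fold change 0.18 ± 0.08, adjusted p = 0.105), and the groups overlapped. NMT2 fell, from 34.1, 38.9 and 45.8 to 18.7, 23.2 and 19.4 CPM (log2 fold change -0.95 ± 0.13, adjusted p = 2.03e-05), with no overlap between the groups. The methionine aminopeptidases METAP1 and METAP2, which expose the glycine, had log2 fold changes of -0.40 ± 0.08 and -0.44 ± 0.15 and were both called lower (adjusted p = 0.000903 and 0.0267), METAP2 losing its call without IMP1088 replicate 1, DMSO replicate 3 or IMP1088 replicate 3 and when only the 6 libraries were fitted. In all, 0 of the 7 enzymes and helpers rose and 3 fell.

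Transcripts of N-myristoylated proteins moved little as a list. Of 57 tested, 7 rose (12.3%) and 17 fell (29.8%), with a median log2 fold change of -0.01 against -0.00 for all genes. The count of falls was 8 without IMP1088 replicate 1, 10 without DMSO replicate 3 and 11 without IMP1088 replicate 3, and when only the 6 libraries were fitted 3 rose and 6 fell. ARF1 counted 457, 436 and 468 CPM with DMSO and 478, 449 and 531 CPM with IMP1088 (log2 fold change 0.10 ± 0.09, adjusted p = 0.396), and these ranges overlapped. ARF3 also overlapped between the groups (log2 fold change 0.14 ± 0.10, adjusted p = 0.309). ARF4, an ARF of the early secretory pathway, rose from 355, 398 and 498 to 757, 755 and 909 CPM (log2 fold change 0.95 ± 0.13, adjusted p = 1.21e-05), every IMP1088 library above every DMSO library. ARF6, which acts at the plasma membrane, fell from 111, 129 and 132 to 90, 99.9 and 95.9 CPM (log2 fold change -0.38 ± 0.09, adjusted p = 0.00407). ARF5 was called lower (log2 fold change -0.38 ± 0.13, adjusted p = 0.0243) but not with length offsets, when only the 6 libraries were fitted, or without IMP1088 replicate 1, DMSO replicate 3 or IMP1088 replicate 3. SRC lay at 46.7, 47.4 and 31.9 CPM with DMSO and 44.9, 43.9 and 39 CPM with IMP1088 (log2 fold change 0.02 ± 0.14, adjusted p = 0.938), and the groups overlapped. The neuronal growth protein BASP1 (log2 fold change -0.67 ± 0.09, adjusted p = 1.22e-05) fell, and the formin FMNL1 (log2 fold change 1.07 ± 0.20, adjusted p = 0.000336) rose.

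Coat components of both directions of ER to Golgi traffic tended upwards. The COPI coat and ARF cycle list had 8 of 18 members higher and 3 lower (median log2 fold change 0.17), and the COPII coat list, whose coat carries cargo out of the ER, had 7 of 14 higher and 0 lower (median 0.32). GBF1, the exchange factor that loads ARF with GTP, counted 135, 95.6 and 60.1 CPM with DMSO and 176, 136 and 155 CPM with IMP1088 (log2 fold change 0.68 ± 0.19, adjusted p = 0.00917). COPA, a coatomer subunit, counted 510.0, 423 and 325 CPM with DMSO and 624, 532 and 619 CPM with IMP1088 (log2 fold change 0.50 ± 0.12, adjusted p = 0.0043). In both, all IMP1088 libraries lay above all DMSO libraries and DMSO replicate 3 was the lowest, and both lost the call when only the 6 libraries were fitted. COPB2 differed by less (log2 fold change 0.23 ± 0.08, adjusted p = 0.0376), and was not called without DMSO replicate 2 or 3 or IMP1088 replicate 1 or 3, with upper quartile scaling, with no filter on low counts and when only the 6 libraries were fitted. COPZ2 fell (log2 fold change -0.69 ± 0.14, adjusted p = 0.000957). Without IMP1088 replicate 3 the COPI list had 5 higher, and with length offsets 8 higher and 1 lower. The falls were also 1 without IMP1088 replicate 1, DMSO replicate 3 or IMP1088 replicate 3. In the COPII coat, SEC16A, the scaffold of ER exit sites, rose from 146, 113 and 70.9 to 229, 200.1 and 214 CPM (log2 fold change 0.96 ± 0.17, adjusted p = 0.00018), and SEC24A, a cargo-binding subunit, rose by 0.80 ± 0.15. When only the 6 libraries were fitted, 3 of the COPI list and 4 of the COPII list rose. Of 18 cargo receptors, 5 rose and 1 fell, LMAN1 among the former (log2 fold change 0.48 ± 0.10, adjusted p = 0.00121). With length offsets 9 rose, and the count was 3 without DMSO replicate 1, 3 without DMSO replicate 2 and 2 without IMP1088 replicate 3.

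ER chaperones and folding enzymes rose as a group, 16 of 23 higher and 0 lower, with a median log2 fold change of 0.50. HSPA5, the BiP chaperone that also holds the stress sensors silent, went from 780.4, 860.1 and 825 CPM to 1872, 1716 and 2137 CPM (log2 fold change 1.22 ± 0.15, adjusted p = 3.3e-06). DNAJB9, its co-chaperone, went from 28.2, 28.4 and 30.5 to 81.2, 75.4 and 88.5 CPM (log2 fold change 1.49 ± 0.16, adjusted p = 5.78e-07). In both genes every IMP1088 library lay far above every DMSO library. HYOU1, the exchange factor of BiP, rose by 1.21 ± 0.17, and ERO1B, an oxidase of disulfide formation, by 1.17 ± 0.18. The 7 members that did not pass, among them PPIB and PDIA4, lay between -0.19 and 0.26 on the log2 scale. The count was 13 to 16 under every alternative other than the test against 2-fold, which called 1.

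The promoter of HSPA5 is shown because it carries the ER stress response element (ERSE), searched on both strands as CCAAT and CCACG with 9 bases between them and shown in capitals. Each ERSE therefore also holds a CCAAT box. All promoters printed are 300 bases from 250 before to 50 after a RefSeq transcription start on GRCh38.p14, written from the gene's own strand, the HSPA5 window being chr9:125241294-125241593, minus strand.
HSPA5: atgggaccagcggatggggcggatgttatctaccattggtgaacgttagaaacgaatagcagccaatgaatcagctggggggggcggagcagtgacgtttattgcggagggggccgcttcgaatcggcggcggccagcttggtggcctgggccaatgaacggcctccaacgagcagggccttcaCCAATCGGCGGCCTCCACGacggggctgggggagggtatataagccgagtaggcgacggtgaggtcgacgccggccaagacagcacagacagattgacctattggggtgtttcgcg
The element begins 66 bases before the start. RefSeq windows were at hand for 21 of the 23 ER chaperone genes, with 27 starts, and 9 of the 27 (33.3%) held an ERSE, against 27 of all 35116 windows (0.0769%). By gene, 7 of the 21 had the element at some start. Of these, 4 rose, with a median log2 fold change of 0.39, and of the 14 without it 11 rose, with a median of 0.54. The match is a description of the letters and not of binding.

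ER-associated degradation genes rose in 10 of 18 cases and fell in 0, with a median of 0.31. HERPUD1, a membrane scaffold of the degradation complex, rose from 83.6, 74.1 and 89 to 254, 245 and 277 CPM (log2 fold change 1.65 ± 0.14, adjusted p = 3.17e-08). SYVN1, the HRD1 ubiquitin ligase, rose by 1.22 ± 0.17, and EDEM1, a mannosidase-like lectin, by 0.89 ± 0.11. DERL3, a derlin of the retrotranslocation channel, had at most 3 counts in each DMSO library, or 0.121, 0.0805 and 0.149 CPM, and rose to 1.71, 2 and 1.36 CPM with IMP1088 (adjusted p = 6.86e-06). Of its exonic length 77% lies opposite SMARCB1 in GENCODE, and whether the counting used strand, without which the reads of both genes cannot be separated, is not known for this table, although the study's methods describe a directional library kit. XBP1, the factor made active by IRE1 splicing, counted 141, 154 and 191 CPM with DMSO and 186, 188 and 221 CPM with IMP1088 and was not called (log2 fold change 0.30 ± 0.12, adjusted p = 0.0646), while it was called with a replicate block (0.30, adjusted p = 0.0204), with length offsets (0.41, adjusted p = 0.00137) and without DMSO replicate 3 (0.43, adjusted p = 0.00622). Gene counts do not tell spliced from unspliced XBP1. In the ER translocation and glycosylation list, 7 of 26 rose and 1 fell (12 and 2 with length offsets), led by STT3A, a catalytic subunit of the oligosaccharyltransferase (log2 fold change 0.75 ± 0.12, adjusted p = 0.000103), and the signal recognition receptor genes SRPRA (0.75 ± 0.12) and SRPRB (0.71 ± 0.12).

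Among ATF4 and CHOP factors and effectors, 10 of 19 rose and 1 fell, with a median of 0.46. DDIT3, which encodes CHOP and shares 31.6% of its exonic length with the opposite strand of MARS1, counted 14.3, 10.1 and 18.1 CPM with DMSO and 55.2, 42.7 and 47 CPM with IMP1088 (log2 fold change 1.78 ± 0.20, adjusted p = 1.96e-06). TRIB3, a pseudokinase induced by both factors, counted 21.4, 28.2 and 23.2 CPM with DMSO and 85.8, 78.4 and 118 CPM with IMP1088 (log2 fold change 1.95 ± 0.19, adjusted p = 1.7e-07). GDF15, a secreted stress cytokine, went from 41.3, 48.5 and 52 to 138, 202 and 149.5 CPM (log2 fold change 1.79 ± 0.15, adjusted p = 2.96e-08), and the activin subunit INHBE from 1.05, 0.845 and 1.09 to 8.08, 6.24 and 8.21 CPM (log2 fold change 2.91 ± 0.41, adjusted p = 1.86e-05). In each of these the IMP1088 libraries lay well above the DMSO libraries. ATF4 itself, regulated mainly in translation, counted 235, 267 and 348 CPM with DMSO and 334, 366 and 403 CPM with IMP1088 with overlap (log2 fold change 0.38 ± 0.14, adjusted p = 0.0382), and its call was lost with upper quartile scaling, when only the 6 libraries were fitted, and without DMSO replicate 1 or 2 or IMP1088 replicate 2 or 3. CHAC1, a glutathione-degrading enzyme induced by ATF4, overlapped between groups at 16.4, 9.58 and 18.4 CPM with DMSO and 13.7, 8.51 and 18.5 CPM with IMP1088 (log2 fold change -0.12 ± 0.30, adjusted p = 0.778). ASNS, asparagine synthetase, was under 1 CPM in every library (0.766, 0.644 and 0.199 CPM with DMSO and 0.452, 0.534 and 0.68 CPM with IMP1088). In GENCODE 49.3% of its exonic length is shared with another gene on the same strand, so its count is uncertain.

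Amino acid handling split by function. Of 10 amino acid transporters 7 rose and 1 fell (median 0.55), and of 14 synthesis enzymes 4 rose and 4 fell. SLC1A4, a carrier of small neutral amino acids, rose from 10.2, 9.66 and 6.87 to 24.5, 18.1 and 27.6 CPM (log2 fold change 1.38 ± 0.21, adjusted p = 4.01e-05). SLC7A11, the cystine carrier, rose from 34.3, 44.5 and 30.5 to 75, 68.7 and 75.3 CPM (log2 fold change 1.00 ± 0.21, adjusted p = 0.00104). CTH, of cysteine synthesis, rose by 1.31 ± 0.25, and SHMT1, of cytosolic serine and glycine exchange, fell, with a log2 fold change of -1.17 ± 0.26. The 4 rises among synthesis enzymes were 2 without IMP1088 replicate 1, without DMSO replicate 3, without IMP1088 replicate 3 or when only the 6 libraries were fitted. Of 20 cytosolic aminoacyl-tRNA synthetases, 6 rose and 2 fell, and 3 rose without IMP1088 replicate 3.

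A C/EBP-ATF composite site, searched as TGATGNAA on both strands, was present in 5 of 16 windows of the amino acid transporters (31.2%), 7 of 21 of the synthetases (33.3%), 4 of 12 of the synthesis enzymes (33.3%) and 4 of 27 of the ATF4 and CHOP list (14.8%), against 3.62% of all windows. The SLC1A4 window that holds it (chr2:64989149-64989448, plus strand) is shown as the carrier with the largest rise, with the match, 7 bases before the start and on the minus strand of the gene, in capitals.
SLC1A4: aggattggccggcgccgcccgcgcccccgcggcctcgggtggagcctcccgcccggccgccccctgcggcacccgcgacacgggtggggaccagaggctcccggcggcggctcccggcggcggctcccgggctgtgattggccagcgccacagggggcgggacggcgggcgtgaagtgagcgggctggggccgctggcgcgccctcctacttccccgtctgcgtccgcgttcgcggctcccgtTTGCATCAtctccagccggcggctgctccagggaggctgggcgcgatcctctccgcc
All 5 transporters with the site rose, with a median of 0.53, and of the 4 without it 1 rose and 1 fell, with a median of 0.45. Among synthetases with the site 3 of 7 rose and 0 fell, and among those without it 3 of 9 rose and 2 fell. In the ATF4 and CHOP list none of the 4 genes with the site rose and 1 fell (median 0.10), while 8 of the 12 without it rose (median 0.73). Of the synthesis enzymes, 0 of the 2 with the site rose and 1 fell, and of the 6 without it 2 rose and 2 fell.

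Mitosis and kinetochore genes fell most, 43 of 45 lower (95.6% called) and 0 higher, with a median log2 fold change of -2.40. CDC20, an activator of the anaphase-promoting complex, went from 15.2, 13 and 16 CPM to 1.35, 0.935 and 1.89 CPM (log2 fold change -3.40 ± 0.27, adjusted p = 1.48e-08). BIRC5, or survivin, of the chromosomal passenger complex, went from 18.3, 18.7 and 26.7 to 1.2, 2.45 and 2.23 CPM (log2 fold change -3.42 ± 0.25, adjusted p = 5.83e-09). MKI67, the proliferation antigen, lay at 32.2, 19.8 and 12.9 CPM with DMSO, highest in replicate 1, and at 3.26, 3.21 and 4.42 CPM with IMP1088 (log2 fold change -2.58 ± 0.29, adjusted p = 1.74e-06). No IMP1088 library reached the lowest DMSO library in these genes. In the plot of CPM in each control-cell library, the cell division genes keep a remainder with IMP1088 and did not drop to the floor. CCNB2, the cyclin B2 gene, kept 1.71, 2.76 and 2.87 CPM of 11, 8.41 and 12.4 CPM, and PLK1, the mitotic kinase, kept 1.61, 2.58 and 2.09 CPM of 11.8, 10.3 and 11.7 CPM. Both were chosen for display after their values were seen, as were EGR2 and SREBF2 in that plot. In bulk RNA fewer cells in mitosis and less of these transcripts per cell cannot be told apart.

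**Figure D3:**
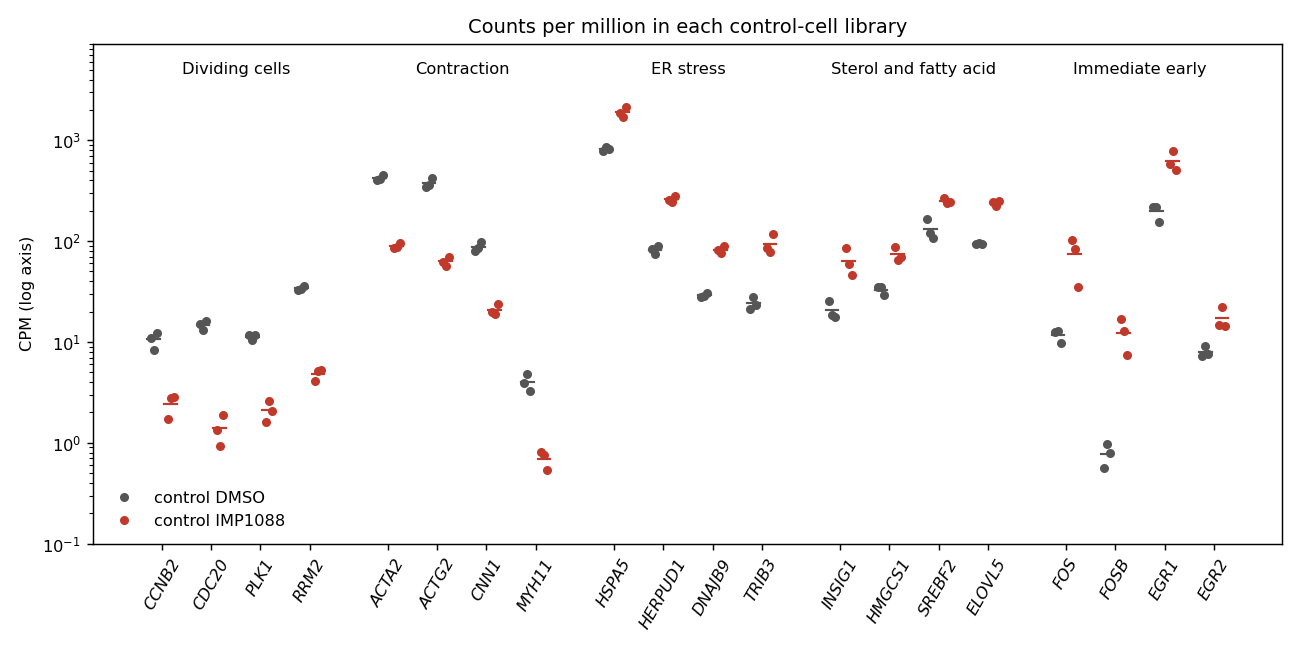
CPM on a log axis (vertical) of 20 genes in 5 groups (horizontal) for control cells with DMSO (grey) and IMP1088 (red), 1 point per library and a line at the mean of 3. The cell division and contraction genes lie lower in all 3 IMP1088 libraries, the ER stress, sterol, fatty acid and immediate early genes higher, with FOS and FOSB spread most among the IMP1088 libraries.

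DNA replication and nucleotide synthesis genes fell in 30 of 39 cases, with 0 higher and a median of -0.80. RRM2, the ribonucleotide reductase subunit whose level follows S phase, counted 32.6, 33.5 and 36 CPM with DMSO and 4.06, 5.12 and 5.29 CPM with IMP1088 (log2 fold change -2.81 ± 0.16, adjusted p = 2.98e-10). TK1, thymidine kinase, counted 17.6, 17.5 and 23.9 CPM with DMSO and 3.36, 3.79 and 4.52 CPM with IMP1088 (log2 fold change -2.34 ± 0.19, adjusted p = 2.81e-08). UHRF1, which keeps DNA methylation through replication, fell, with a log2 fold change of -1.95 ± 0.19, and MCM10, an origin firing factor, fell too, with a log2 fold change of -2.48 ± 0.26. Members such as POLE and MCM2 were not called, at -0.22 and -0.29. Of the CDK inhibitor and RB family list, 12 of 20 fell and 2 rose. The E2F family and cyclins made up much of the fall, with CCNE2 at 4.47, 4.67 and 5.92 CPM with DMSO and 0.853, 1.51 and 0.534 CPM with IMP1088 (log2 fold change -2.35 ± 0.31, adjusted p = 1.08e-05), 37.1% of whose exons lie opposite INTS8. LMNB1, which encodes a nuclear lamin and belongs to neither family, lay at 27.7, 26.1 and 27.7 CPM with DMSO and 9.68, 10.6 and 10.7 CPM with IMP1088 (log2 fold change -1.39 ± 0.24, adjusted p = 0.000156).

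None of the CDK inhibitors tested was called higher. CDKN1A, which encodes p21, counted 410.2, 341 and 378 CPM with DMSO and 396, 311 and 325 CPM with IMP1088 (log2 fold change -0.13 ± 0.11, adjusted p = 0.369). CDKN2B, which encodes p15, counted 29.9, 25.5 and 23.8 CPM with DMSO and 31.7, 28.3 and 27.3 CPM with IMP1088 (log2 fold change 0.14 ± 0.12, adjusted p = 0.39). CDKN2A, the gene of p16 and ARF, fell from 62.4, 74.3 and 103 to 47.3, 54.2 and 55.4 CPM (log2 fold change -0.61 ± 0.14, adjusted p = 0.00245). Of 22 p53 targets, 0 rose and 5 fell, with a median of -0.15, GADD45A (log2 fold change -0.96 ± 0.18, adjusted p = 0.0005) being the largest fall. Leaving out DMSO replicate 1 gave 5 rises and 8 falls, leaving out DMSO replicate 3 gave 1 rise and 3 falls, and the replicate block gave 3 rises. Of 60 replication-dependent histone genes only 15 had enough counts in this poly(A) RNA to be tested, and 1 of them, H2BC21, rose (log2 fold change 0.81 ± 0.19, adjusted p = 0.00266).

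The windows of CCNB2 (chr15:59104896-59105195, plus strand) and PLK1 (chr16:23678639-23678938, plus strand) are shown because cell cycle genes often carry a cell cycle homology region (CHR), searched as TTTGAA, downstream of CCAAT boxes. Capitals mark both motifs, searched on both strands.
CCNB2: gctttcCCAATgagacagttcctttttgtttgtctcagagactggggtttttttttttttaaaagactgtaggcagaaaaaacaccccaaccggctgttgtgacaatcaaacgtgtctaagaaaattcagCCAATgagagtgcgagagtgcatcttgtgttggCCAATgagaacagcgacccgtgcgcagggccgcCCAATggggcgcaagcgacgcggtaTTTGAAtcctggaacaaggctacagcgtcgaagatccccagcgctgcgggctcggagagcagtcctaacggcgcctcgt
PLK1: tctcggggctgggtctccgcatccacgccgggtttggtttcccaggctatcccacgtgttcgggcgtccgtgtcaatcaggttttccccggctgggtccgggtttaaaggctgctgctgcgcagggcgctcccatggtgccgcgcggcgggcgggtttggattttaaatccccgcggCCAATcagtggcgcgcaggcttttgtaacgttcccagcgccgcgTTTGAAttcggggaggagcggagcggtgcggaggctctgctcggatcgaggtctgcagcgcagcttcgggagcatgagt
In both genes the CHR begins 29 bases before the start. In CCNB2 the 4 CCAAT boxes begin 54, 87, 120 and 244 bases before it, and in PLK1 1 begins 73 bases before it. Windows were at hand for 39 of the 45 mitotic genes with 49 starts, of which 29 (59.2%) held a CHR and 37 (75.5%) a CCAAT box, against 15.2% and 34.6% of all windows. By gene, 25 of 26 with a CHR fell, with a median of -2.40, and 12 of 13 without it fell, with a median of -2.46. An E2F site, TTTGGCGC or TTTCGCGC, was in 11 of 46 windows of 35 replication genes (23.9%) against 1.15% of all windows. Of the 11 genes with it 6 fell (median -0.39), and of the 24 without it 20 fell (median -0.92).

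Contractile genes formed the other large fall, 12 of 15 lower and 0 higher, with a median of -1.15. ACTA2, smooth muscle actin and the usual myofibroblast marker, went from 401, 411 and 449 to 85.2, 86.5 and 95.1 CPM (log2 fold change -2.24 ± 0.12, adjusted p = 1.22e-10). ACTG2, the enteric smooth muscle actin, went from 344, 358 and 427 to 62.7, 56.2 and 70.3 CPM (log2 fold change -2.58 ± 0.14, adjusted p = 1.56e-10). CNN1, the thin filament protein calponin, went from 80.6, 84.8 and 98.3 to 20, 18.8 and 24 CPM (log2 fold change -2.07 ± 0.15, adjusted p = 7.21e-09). The IMP1088 values lay close together and far below the spread of the DMSO libraries. MYH11, the smooth muscle myosin heavy chain, fell from 3.95, 4.79 and 3.28 to 0.803, 0.757 and 0.534 CPM (log2 fold change -2.51 ± 0.33, adjusted p = 8.66e-06). Part of the ACTA2 locus (35.9% of exonic length) has an antisense RNA. Smooth muscle cells share these genes with myofibroblasts.

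Of 14 targets of the YAP and TAZ coactivators, 10 fell and 1 rose, with a median of -0.49 (5 fell without IMP1088 replicate 1, and 6 when only the 6 libraries were fitted). NT5E, the ecto-nucleotidase CD73, fell from 239, 205 and 178 to 61.1, 56.1 and 56.8 CPM (log2 fold change -1.84 ± 0.11, adjusted p = 3.29e-10), and F3, tissue factor, fell, with a log2 fold change of -1.17 ± 0.19. Matrix genes did not share a direction. Of 19 collagens 4 rose and 4 fell, and these counts rested on the DMSO libraries: 1 and 7 without DMSO replicate 3, 7 and 2 without DMSO replicate 1. They were 2 and 3 without IMP1088 replicate 1, 4 and 2 without replicate 2 of either group, and 1 and 2 when only the 6 libraries were fitted. COL3A1 counted 4210.3, 3883 and 3011 CPM with DMSO and 5515, 5386 and 5529 CPM with IMP1088 (log2 fold change 0.57 ± 0.15, adjusted p = 0.00814), while COL1A1 was not called (log2 fold change 0.19 ± 0.18, adjusted p = 0.435). Of the 19 elastic fibre and crosslinking genes 6 fell and 3 rose, POSTN (periostin) at -1.06 ± 0.12, the lysyl oxidase LOXL2 at -0.89 ± 0.13 and MFAP4 at 0.78 ± 0.11. The rises were 1 without IMP1088 replicate 2 or 3, and 1 rose and 3 fell when only the 6 libraries were fitted. The surface marker THY1 fell from 628, 648 and 705 to 240.4, 239 and 271 CPM (log2 fold change -1.40 ± 0.10, adjusted p = 7.21e-09) and S100A4 fell, with a log2 fold change of -1.63 ± 0.23, and of the 11 fibroblast markers, all still present, 2 rose and 4 fell. The rises were 4 without DMSO replicate 1, and 1 without DMSO replicate 3 or IMP1088 replicate 1.

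Immediate early genes, which are transcribed within minutes of a growth or stress signal, were higher at 3 days in 11 of 20 cases and lower in 3, with a median of 0.56. FOSB counted 0.564, 0.966 and 0.796 CPM with DMSO and 16.7, 12.7 and 7.38 CPM with IMP1088 (log2 fold change 3.97 ± 0.48, adjusted p = 3.12e-06). FOS counted 12.4, 12.8 and 9.85 CPM with DMSO and 102, 83.2 and 35.5 CPM with IMP1088 (log2 fold change 2.65 ± 0.44, adjusted p = 0.000118). EGR1 counted 219, 219 and 153 CPM with DMSO and 577, 780.4 and 503 CPM with IMP1088 (log2 fold change 1.65 ± 0.23, adjusted p = 1.71e-05). The groups did not overlap, though in FOS and FOSB IMP1088 replicate 3 was the lowest treated library. NR4A3, an orphan nuclear receptor, rose by 2.08 ± 0.25, and EGR2 from 7.17, 9.17 and 7.61 to 14.8, 22.1 and 14.5 CPM (log2 fold change 1.10 ± 0.21, adjusted p = 0.000473). The lower members were FOSL1, KLF6 and MYC, with log2 fold changes of -0.91, -0.78 and -0.54. Genes of ERK feedback, another readout of growth factor signalling, had 2 of 16 higher and 4 lower with a median of 0.06, and 4 rose and 2 fell without DMSO replicate 3. The replicate block and the length offsets each gave 4 rises.

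The CArG box, the site of serum response factor, is known from promoters of both contractile and immediate early genes, lists that moved in opposite directions here. The ACTG2 (chr2:73892758-73893057, plus strand) and EGR1 (chr5:138465229-138465528, plus strand) windows are shown for that reason, with the CArG boxes in capitals.
ACTG2: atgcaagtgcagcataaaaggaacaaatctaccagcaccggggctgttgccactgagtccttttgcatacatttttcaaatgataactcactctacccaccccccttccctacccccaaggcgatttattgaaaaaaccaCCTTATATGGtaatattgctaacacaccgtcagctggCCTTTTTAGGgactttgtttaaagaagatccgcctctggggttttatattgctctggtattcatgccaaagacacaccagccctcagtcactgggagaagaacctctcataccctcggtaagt
EGR1: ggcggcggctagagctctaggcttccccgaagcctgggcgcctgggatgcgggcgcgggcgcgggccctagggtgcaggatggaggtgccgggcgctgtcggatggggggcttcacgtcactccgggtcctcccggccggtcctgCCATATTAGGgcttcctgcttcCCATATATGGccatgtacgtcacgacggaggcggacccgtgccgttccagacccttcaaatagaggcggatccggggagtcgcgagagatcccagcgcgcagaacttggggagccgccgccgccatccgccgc
In ACTG2 they begin 110 and 73 bases before the start, and in EGR1 105 and 83 bases before it. A CArG box was in 4 of 16 windows of 11 contractile genes (25%) and in 2 of 19 windows of 15 immediate early genes (10.5%), against 1.29% of all windows. Of the 4 contractile genes with a box 3 fell, with a median of -0.37, and of the 7 without it 6 fell, with a median of -1.28. Both immediate early genes with a box rose, with a median of 1.38. Of all 15 immediate early genes with a window, 9 rose and 1 fell, with a median of 1.07.

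Sterol synthesis and uptake genes rose in 16 of 24 cases with 0 lower and a median of 0.63. INSIG1, the ER anchor of the sterol sensor, went from 25.7, 18.5 and 17.9 to 85.1, 59.5 and 46.3 CPM (log2 fold change 1.62 ± 0.21, adjusted p = 7.94e-06). HMGCS1, which makes HMG-CoA, went from 35.1, 34.7 and 29.3 to 87.6, 65.2 and 68.8 CPM (log2 fold change 1.16 ± 0.15, adjusted p = 8.48e-06). Replicate 1 was the highest library in both groups for INSIG1 and HMGCS1, and the groups did not overlap. SREBF2, the factor that drives the pathway, rose from 166, 121 and 107 to 269, 239 and 242 CPM (log2 fold change 0.93 ± 0.12, adjusted p = 7.03e-06). Of HMGCS1, 37.7% of the exonic length lies opposite another annotated transcript. Of 12 fatty acid genes, 7 rose and 2 fell. ELOVL5, an elongase, rose from 94.1, 95.3 and 94.1 to 245, 221 and 249.6 CPM (log2 fold change 1.33 ± 0.10, adjusted p = 1.36e-08), and the desaturases FADS1, FADS2 and SCD by 1.60 ± 0.19, 1.04 ± 0.15 and 1.21 ± 0.21. MFSD2A, a lysophospholipid carrier outside the lists, was among the largest rises at 3.18, 3.82 and 3.68 CPM with DMSO and 27.2, 26.1 and 39.7 CPM with IMP1088 (log2 fold change 3.12 ± 0.22, adjusted p = 5.09e-09).

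Lysosomal genes rose in 19 of 32 cases and fell in 3, with a median of 0.32 (11 rose when only the 6 libraries were fitted). NPC1, the lysosomal cholesterol exporter, counted 15.4, 10.1 and 6.32 CPM with DMSO, lowest in replicate 3, and 33, 22.5 and 29 CPM with IMP1088 (log2 fold change 1.39 ± 0.21, adjusted p = 5.14e-05). NEU1, a sialidase, counted 48.2, 41.3 and 45.3 CPM with DMSO and 106, 92 and 93.5 CPM with IMP1088 (log2 fold change 1.11 ± 0.09, adjusted p = 1.94e-08), and the peptidase TPP1 rose by 1.09 ± 0.18. TFEB, the factor named for driving lysosomal genes, was lower, with a log2 fold change of -0.79. GPNMB, a lysosomal glycoprotein, rose from 4.64, 4.06 and 3.13 to 28.5, 25.3 and 17.1 CPM (log2 fold change 2.57 ± 0.24, adjusted p = 1.58e-07), and ACP5, the tartrate-resistant phosphatase, from 1.37, 1.77 and 1.14 to 9.18, 10.6 and 8.26 CPM (log2 fold change 2.69 ± 0.31, adjusted p = 1.95e-06). Of 15 autophagy receptors and LC3 family genes, 6 rose and 1 fell (3 rose when only the 6 libraries were fitted). SQSTM1, the p62 receptor, rose from 712, 664 and 708 to 1365, 1321 and 1214 CPM (log2 fold change 0.90 ± 0.09, adjusted p = 4.49e-07), and WIPI1, of the forming autophagosome, by 0.63 ± 0.09.

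Of 20 glycolysis genes 10 were lower, 4 were higher and 6 were not called. LDHA, lactate dehydrogenase, fell from 434, 449 and 523 to 180.1, 176 and 209 CPM (log2 fold change -1.32 ± 0.10, adjusted p = 1.25e-08), and PKM, pyruvate kinase, from 1765, 1631 and 1629.7 to 886, 803 and 884 CPM (log2 fold change -0.97 ± 0.09, adjusted p = 2.02e-07). HK2, the inducible hexokinase, was the largest of the 4 rises, from 22.3, 17.2 and 14.4 to 40.2, 29.1 and 37.6 CPM (log2 fold change 0.98 ± 0.16, adjusted p = 0.00012). NRF2 targets had 5 of 21 higher and 5 lower, NQO1 at -0.99 ± 0.11 and the cystine carrier SLC7A11 at 1.00 ± 0.21. Cytosolic heat shock genes did not rise, 0 of 15, and 4 fell (1 when only the 6 libraries were fitted), the largest fall being that of HSPB1 (-1.15 ± 0.13).

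Complex I and proteasome genes are short, and their counts moved with the handling of length. The median transcript length was 747.5 bases for complex I and 1540 for the proteasome, against 3270.5 for all genes. Of 42 complex I genes 22 fell and 1 rose, with a median of -0.44, which became 13 and 1 with a median of -0.15 under length offsets. Without DMSO replicate 3 the falls were 9, without DMSO replicate 1 they were 35, and 5 were left when only the 6 libraries were fitted. Over all genes the falls were 2118 of 14493, 2983 of 14513 and 1483 of 13580 in these fits, in that order. NDUFA13, the largest fall of the list, counted 109, 141 and 223 CPM with DMSO and 67.6, 78.9 and 80.5 CPM with IMP1088 (log2 fold change -1.06 ± 0.19, adjusted p = 0.000218). DMSO replicate 3 was the highest library by far there. Of 31 proteasome genes 21 fell and 1 rose, with a median of -0.37, which became 14 and 1 with a median of -0.18 under length offsets. The falls were 9 without DMSO replicate 3, 11 without IMP1088 replicate 1 and 5 when only the 6 libraries were fitted. PSMA1 counted 119.5, 126 and 173 CPM with DMSO and 92.6, 93.3 and 90.3 CPM with IMP1088 (log2 fold change -0.60 ± 0.12, adjusted p = 0.000774).

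Secreted factors known from senescent cells did not share a direction, 10 of 43 higher and 13 lower (6 and 8 when only the 6 libraries were fitted). The chemokine CXCL2 rose from 0.484, 0.684 and 1.09 to 1.76, 1.96 and 2.04 CPM (log2 fold change 1.38 ± 0.25, adjusted p = 0.000265). CXCL8 was not called (log2 fold change 0.48 ± 0.30, adjusted p = 0.229) but was with a replicate block (0.51, adjusted p = 0.0252), without DMSO replicate 3 (0.93, adjusted p = 0.0138) and with no filter on low counts (0.48, adjusted p = 0.0357), at 13.1, 21.5 and 36.7 CPM with DMSO and 20, 32 and 46.8 CPM with IMP1088, the IMP1088 library being the higher of each numbered pair. IL6 counted 12.3, 22.6 and 35.1 CPM with DMSO and 6.42, 10.2 and 15.7 CPM with IMP1088 with overlap (log2 fold change -1.11 ± 0.30, adjusted p = 0.00691). The IMP1088 library was the lower of each numbered pair. IL6 lost its call without DMSO replicate 3 and when only the 6 libraries were fitted, and kept it with a replicate block. IGFBP3, which binds insulin-like growth factors, fell from 65.4, 55.7 and 56.3 to 22, 21.8 and 21.9 CPM (log2 fold change -1.43 ± 0.13, adjusted p = 6.26e-08). Of 33 interferon-stimulated genes 5 rose and 8 fell, with the guanylate-binding protein GBP1 lower (log2 fold change -1.36 ± 0.22, adjusted p = 8.72e-05) and STAT2 higher (log2 fold change 0.81 ± 0.11, adjusted p = 9.26e-06). When only the 6 libraries were fitted 3 rose and 4 fell, the rises were 2 without IMP1088 replicate 1, and the falls were 3 without IMP1088 replicate 2 and 5 without DMSO replicate 2, DMSO replicate 3 or IMP1088 replicate 3.

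In the BCL2 family, which sets the threshold of apoptosis, 3 of 14 rose and 6 fell. BCL2 rose from 3.75, 3.34 and 2.89 to 8.38, 9.44 and 8.79 CPM (log2 fold change 1.41 ± 0.20, adjusted p = 1.67e-05), and BCL2A1, another survival member, by 1.46 ± 0.28. BCL2L11, the pro-death member BIM, rose from 12.3, 9.9 and 7.07 to 21.5, 21 and 13.6 CPM (log2 fold change 0.93 ± 0.21, adjusted p = 0.00206), while PMAIP1, the pro-death member NOXA, fell from 45.4, 49.3 and 73.3 to 22.6, 23.2 and 25.5 CPM (log2 fold change -1.23 ± 0.16, adjusted p = 1.11e-05). These were picked for the size of their change, BCL2 and BCL2A1 rising and the pro-death BCL2L11 and PMAIP1 moving in opposite directions. BAX, a death effector, was called lower (log2 fold change -0.42, adjusted p = 0.0149). Its call was lost with length offsets, when only the 6 libraries were fitted and without DMSO replicate 3. The survival members MCL1 and BCL2L1 were not called (0.08 ± 0.10 and -0.18 ± 0.08).

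The genes with the largest fold changes at an average of at least 1 CPM in a group were mostly low in 1 group. KLHDC7B counted 0.161, 0.0805 and 0 CPM with DMSO and 2.51, 1.51 and 4.47 CPM with IMP1088 (adjusted p = 6.38e-06). ARFGEF3, related to ARF exchange factors, counted 0.0806, 0.161 and 0 CPM with DMSO and 2.01, 2.23 and 2.43 CPM with IMP1088 (adjusted p = 6.46e-07). CLDN3, a claudin, counted 0.0806, 0.0402 and 0.0498 CPM with DMSO and 0.602, 1.11 and 1.31 CPM with IMP1088 (adjusted p = 8.63e-06), with 1 or 2 counts in each DMSO library. In these genes a fold change rests on a handful of counts and is not given. EML6, LDHD, UNC13A, MPV17L and CHRNE likewise went from under 0.5 CPM in every DMSO library to 0.846 to 2.82 CPM with IMP1088, and 59.6% of the exonic length of CHRNE lies opposite C17orf107.

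Among the largest falls, NEK2, DLGAP5, ERCC6L, DEPDC1, PBK, SKA1 and UBE2C belong with mitosis, and their log2 fold changes ran from -3.65 for NEK2 to -3.05 for UBE2C. Others are not on the division lists. GAP43, a growth cone protein, counted 6.41, 7.16 and 15.4 CPM with DMSO and 0.552, 0.312 and 0.923 CPM with IMP1088 (log2 fold change -4.01 ± 0.40, adjusted p = 3.44e-07). LRRC15, a surface protein of activated fibroblasts, counted 6.85, 4.47 and 2.59 CPM with DMSO and 0.652, 0.356 and 0.583 CPM with IMP1088 (log2 fold change -3.14 ± 0.39, adjusted p = 4.89e-06). KRTAP2-3 counted 1.98, 2.86 and 4.13 CPM with DMSO and 0.151, 0.267 and 0.0971 CPM with IMP1088 (log2 fold change -4.03 ± 0.59, adjusted p = 3.18e-05), and as a member of a family of near-identical genes its count is uncertain. HRCT1 and PALM3 fell, with log2 fold changes of -3.15 ± 0.54 and -3.10 ± 0.40, and ALKAL1 went from 0.645, 0.805 and 1.69 to 0.151, 0.0891 and 0 CPM, at or under 3 counts in each IMP1088 library.

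The same inhibitor was given to senescent cells, and the difference between both effects was tested in the fit over all 18 libraries. The effects in control and in senescent cells share no library. The effect of IMP1088 differed between senescent and control cells in 3761 of 14341 genes (26.2%), 1731 with a more positive effect in senescent cells (12.1%) and 2030 with a more negative one (14.2%). In senescent cells alone IMP1088 gave 6374 calls (44.4%). Of the 4829 genes called in control cells, 1630 also differed in this way. The senescent effect was called in the opposite direction in 356 of the 1630, was not called in 827, and had the same direction in 447, of which 350 had the larger effect in senescent cells.

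**Figure D4:**
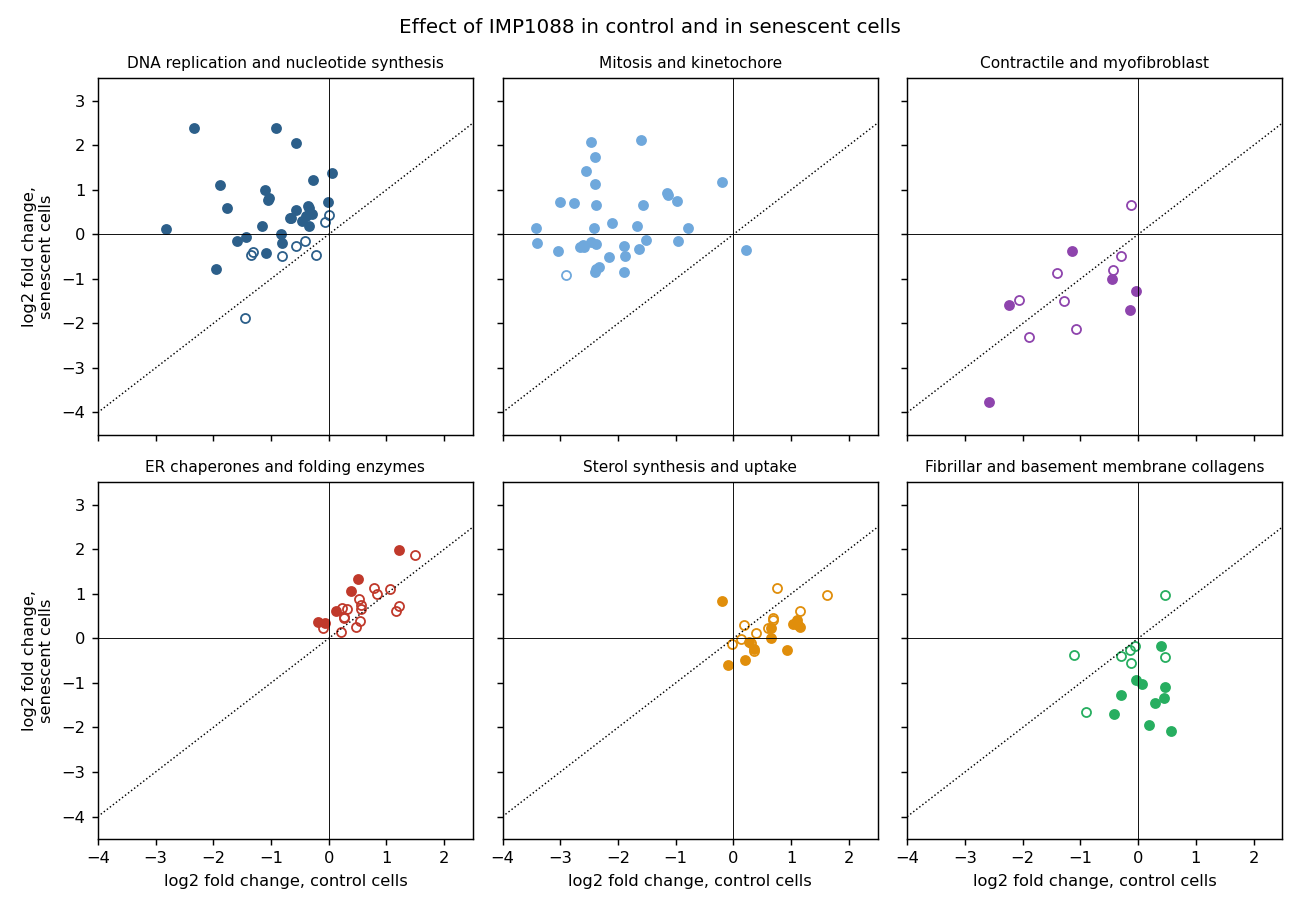
Log2 fold change with IMP1088 in control cells (horizontal) and senescent cells (vertical) for members of 6 gene lists with more than 3 counts in some library of each of the 4 groups, filled where the effects differ at an adjusted p under 0.05, with a dotted line of equality. Of the plotted genes, 35 of 37 mitosis and 28 of 37 replication genes lie significantly above the line, and 11 of 24 sterol genes and 10 of 18 collagens significantly below it.

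Division genes were among these differences, as the plot of the effect in control and in senescent cells shows. Of 45 mitosis genes 36 had a more positive effect in senescent cells and 1 a more negative one, and of 39 replication genes 28 and 0. The median effects in senescent cells were -0.19 and 0.36, against -2.40 and -0.80 in control cells. Over the 37 mitosis and 37 replication genes above the floor in all 4 groups they were -0.13 and 0.36. Senescent and control cells with DMSO differed in 9827 genes (68.5%), TK1, RRM2, BIRC5, CDC20 and LMNB1 among them. TK1 counted 0.37, 0.187 and 0.44 CPM in senescent cells with DMSO and 1.63, 1.17 and 2.52 CPM with IMP1088, an effect of 2.38 ± 0.37 against -2.34 ± 0.19 in control cells (difference 4.71 ± 0.40, adjusted p = 9.91e-08). RRM2 counted 5.37, 4.11 and 5.55 CPM with DMSO and 5.79, 3.97 and 6.56 CPM with IMP1088 in senescent cells (difference 2.93 ± 0.23, adjusted p = 4.28e-08). BIRC5 counted 0.494, 0.249 and 0.494 CPM with DMSO and 0.421, 0.224 and 0.729 CPM with IMP1088 there, and CDC20 2.65, 2.12 and 1.98 CPM with DMSO and 2.16, 1.17 and 2.58 CPM with IMP1088. In TK1, RRM2, BIRC5 and CDC20 every senescent DMSO library lay far below every control DMSO library. LMNB1 counted 2.78, 0.872 and 2.58 CPM with DMSO and 4, 3.52 and 5.33 CPM with IMP1088 in senescent cells (difference 2.42 ± 0.40, adjusted p = 0.000218).

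The ER chaperones rose in both states. Of the 23 ER chaperones 6 had a more positive effect in senescent cells and 0 a more negative one (median effect 0.67 in senescent and 0.50 in control cells). HSPA5 counted 1256, 1165 and 1091 CPM in senescent cells with DMSO and 4822, 4577 and 4544 CPM with IMP1088, an effect of 1.99 ± 0.15 against 1.22 ± 0.15 (difference 0.77 ± 0.20, adjusted p = 0.00887). ARF4 had effects of 2.41 ± 0.13 in senescent and 0.95 ± 0.13 in control cells (difference 1.46 ± 0.18, adjusted p = 1.08e-05). TRIB3 and GDF15 had the larger effect in control cells, with differences of -1.40 ± 0.25 and -1.39 ± 0.20 (adjusted p = 0.000541 and 6.82e-05). DDIT3 had effects of 1.75 ± 0.20 and 1.78 ± 0.20 in senescent and control cells and no called difference (-0.02 ± 0.28, adjusted p = 0.961).

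Sterol genes leaned towards control cells. Of the 24 sterol genes 11 differed that way and 1 the other way, SREBF2 going from 355, 352 and 386 to 295, 311 and 309.7 CPM in senescent cells (difference -1.18 ± 0.17, adjusted p = 4.54e-05). EGR1 counted 213, 134 and 154 CPM with DMSO and 202, 159 and 138 CPM with IMP1088 in senescent cells, an effect of -0.01 ± 0.23 against 1.65 ± 0.23 (difference -1.66 ± 0.32, adjusted p = 0.000896). Among 19 collagens 11 had a more negative effect in senescent cells and 0 a more positive one. COL3A1 went from 291, 346 and 250.5 to 63.2, 84.2 and 64.1 CPM and COL1A1 from 3338, 3390.3 and 2895 to 750.4, 899 and 845 CPM there (differences -2.63 ± 0.22 and -2.14 ± 0.25, adjusted p = 9.14e-08 and 6.67e-06). Contractile genes fell in both states, 13 of 15 in senescent cells with a median of -1.47, and 6 differed in size. NT5E fell further in control cells (difference 1.32 ± 0.14, adjusted p = 2.68e-06), and BCL2, which rose in control cells, had an effect of -0.30 ± 0.43 in senescent cells (difference -1.71 ± 0.48, adjusted p = 0.013).

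DDD86481 was given to control cells at 1.5 µM, against the same DMSO libraries, so its values stand beside those of IMP1088 at 300 nM without a comparison. It gave 5242 calls (36.6%), 2554 higher (17.8%) and 2688 lower (18.7%). The list medians with DDD86481 were -2.46 for mitosis, -0.72 for replication, -1.20 for contraction, 0.51 for ER chaperones and 0.64 for sterol synthesis. HSPA5 had a log2 fold change of 1.23 with DDD86481, CDC20 of -3.10, ACTA2 of -2.30, INSIG1 of 1.64 and FOSB of 3.94.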

How the data were processed

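Poly(A) RNA of 18 libraries, 3 in each of 6 groups, was deposited by the authors as 1 table of raw counts per gene (28266 rows), with no normalization. Their processing notes name DRAGEN, STAR 2.7.8a, DESeq2 1.32.0 and the build hg38. The study's methods instead name a directional library kit and alignment by TopHat with a first-strand setting to hg19 with Ensembl genes. Which of them made the table, and so its annotation and strand setting, could not be settled, so no coordinates are printed other than those of the RefSeq promoter windows. The 14341 genes passing edgeR's filterByExpr (4.0.16, R 4.3.3) were scaled by TMM and fitted with the quasi-likelihood test in 1 model over the 6 groups checked on simulated data, with standard errors taken as the log2 fold change over the root of its F statistic. Replicate numbers were taken to pair control DMSO and IMP1088 libraries from the correlation of their deviations alone (0.394, 0.123 and 0.231). Control DMSO with DDD86481 gave 0.16, 0.093 and 0.019, and senescent pairs gave 0.007 to 0.096. Libraries of unlike number were not compared, so the pairing stays uncertain, and the main test had no pairing term. Alternatives were other scalings, DESeq2 1.42.0, no filter, only the groups compared, a replicate block, a 2-fold test and left-out libraries. Lowess offsets on GENCODE transcript length (span 0.3, 97.7% of genes) were added after seeing the data. Genes were named by rule: 15 largest rises and 15 largest falls of at least 1 CPM in a group, 16 by interaction, and leading and fixed members of 39 lists. CCNB2, PLK1, EGR2, SREBF2, FOSL1, KLF6, MYC, TFEB, POLE and MCM2 were named after their values were seen. Some genes that the rule names are not reported here. The members and lists were chosen with earlier results of these data known.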

Additional observations from a re-analysis of the deposited data

Results flagged for a closer look

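The effect of IMP1088 differed between senescent and control cells, by the interaction term of edgeR's quasi-likelihood fit, in 3761 genes. Each value given here for a gene is its log2 effect among senescent cells less its log2 effect among control cells. Among those with counts above the floor in all 4 groups, the more positive effects in senescent cells were 4.87 for ANKRD1, 4.80 for ESCO2, 4.71 for TK1, 4.64 for SHCBP1 and 4.55 for KIF2C. ANKRD1, a YAP target, fell from 0.766, 1.33 and 2.09 to 0.251, 0.624 and 0.389 CPM in control cells, a fall not called without IMP1088 replicate 1 or without DMSO replicate 3 (log2 fold change -1.28, adjusted p = 0.0568 by edgeR's quasi-likelihood test), and went from 0.432, 0.809 and 0.714 to 3.05, 8.78 and 6.45 CPM in senescent cells. ESCO2, a cohesin acetyltransferase, fell from 3.31, 2.78 and 3.09 to 0.652, 0.178 and 1.02 CPM and went from 0.247, 0.125 and 0.33 to 1.05, 1.57 and 1.46 CPM. The chemokine CXCL10 had a difference of -4.26, at 1.73, 1.89 and 2.69 CPM with DMSO and 1.1, 0.757 and 1.65 CPM with IMP1088 in control cells and 24.8, 33.8 and 30.3 CPM with DMSO and 0.368, 0.95 and 1.29 CPM with IMP1088 in senescent cells.

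In the other 10 genes a group lay at or under 3 counts in every library, so the fitted difference depends on the prior count and is no bound. These were 5.47 for KIF20A, 5.38 for IL23A, 5.35 for SPTLC3, -6.33 for ABCA6, -5.25 for GPR63, -4.72 for BMP5, -4.62 for ZNF519, -4.58 for ADCY4, -4.02 for SMIM38 and -4.02 for CLCA2. Without control DMSO replicate 3 the difference of IL23A was 4.39 and not called (adjusted p = 0.136 by edgeR's quasi-likelihood test). That of ZNF519 was not called in 4 of 12 fits with a library left out. KIF20A, a mitotic kinesin, was at 22.1, 15 and 14 CPM with DMSO and 2.66, 2.72 and 3.06 CPM with IMP1088 in control cells and at 0.123, 0.125 and 0.0549 CPM with DMSO and 0.579, 0.727 and 1.01 CPM with IMP1088 in senescent cells. CLCA2 was at 3.99, 4.51 and 4.48 CPM with DMSO and 11, 12.5 and 11.1 CPM with IMP1088 in control cells and at 0.432, 0.436 and 0.549 CPM with DMSO and 0.105, 0.112 and 0 CPM with IMP1088 in senescent cells.

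Of the genes described for other reasons, the difference was 3.55 for BIRC5, 3.22 for CDC20, 2.93 for RRM2, 2.42 for LMNB1, 1.46 for ARF4, 1.32 for NT5E and 0.77 for HSPA5. It was negative for COL3A1 (-2.63), COL1A1 (-2.14), BCL2 (-1.71), EGR1 (-1.66), TRIB3 (-1.40), GDF15 (-1.39) and SREBF2 (-1.18).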

How the results depend on the processing

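Of 205 genes named by rule 184 were called in control cells, 151 of them under every alternative other than the 2-fold test and the left-out libraries, and 148 also with each of the 6 control libraries left out. None of the 184 changed direction. Apart from the fixed members and those named by interaction, the named genes were picked among genes already past the threshold. Their share called is thus set by the choice and does not stand for all calls. The fit of only the groups compared, which has fewer libraries to estimate the spread, gave 2716 calls (1233 higher, 1483 lower) and lost 32 named calls. The test against 2-fold, stricter by construction, gave 257 (52 and 205), and for the interaction 250 (136 and 114). Leaving out 1 library gave 3505 to 5892 calls (1701 to 2909 higher, 1804 to 2983 lower), and for the interaction 2738 to 5242 (1331 to 2520 and 1324 to 2722), the 1324 without control IMP1088 replicate 1. The replicate block, used because the numbers were taken to pair the control libraries, gave 5658 calls (2837 and 2821), or 4105 with only the groups compared, and 5675 with length offsets. It added calls for CXCL10, SMIM38, XBP1, CXCL8 and IL1B and, alone, changed no other named call. Length offsets gave 5247 calls (2404 and 2843) and lost 4 named calls in control cells. Upper quartile scaling gave 4818 (1900 and 2918), DESeq2 size factors in edgeR 4814, DESeq2's test 4919 and no filter 4797. Depth limits genes near 3 counts a library, and a fold change or fitted difference printed for such a gene is uncertain.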
